A study of Bos indicus with 9 samples.

Results

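Open chromatin regions found in hypothalamus and muscle but not in liver were taken from the consensus ATAC-seq peak lists of Brahman heifers. They are the hypothalamus peaks on chromosomes 1 to 29, starting at 1 Mb or beyond, that overlap a muscle peak by at least 1 bp and overlap no liver peak. The regions were thus selected by measured values, the presence of a peak in each list, so their absence from liver and presence in muscle are given as a description with no test. There were 7844 such regions among 68177 hypothalamus peaks on the same sequences (11.5%, 95% Wilson interval 11.3 to 11.7) and 78528 hypothalamus peaks in all. Of the others on these sequences, 51518 peaks were found in hypothalamus only, 8207 overlapped peaks in all 3 tissues, and 608 overlapped liver but not muscle.

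ATAC-seq cuts accessible DNA with the Tn5 transposase, so that peaks of cuts mark open chromatin. The libraries were made by the Omni-ATAC protocol from nuclei of frozen hypothalamus, muscle, and liver of 3 unrelated, post-pubertal Brahman heifers (*Bos indicus*; animals 2047, 2054, and 2057), with 9 libraries in all. Each tissue was processed as a bulk sample, so a region may be open in different cell types of the 2 tissues. The 3 heifers of a tissue were combined into 1 list before deposit, with neither values for each heifer nor read counts, so that no test between tissues was possible and the depth behind each peak is not known from them. Each peak carries a summit −log10 p, combined over the heifers, and a signal, the area under its curve above the calling threshold (AUC). Neither is scaled between tissues, and values are compared between lists only as percentiles within each list (the percent of peaks on the same chromosomes at or below that summit). Intervals given for shares cover counting error only, and neighbouring peaks of 1 gene are not independent.

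Accessible chromatin falls into promoters, many of which are open in most tissues, and distal enhancers, which differ more between cell types. Hypothalamus is made up mainly of neurons and glia, and skeletal muscle of multinucleate fibres. Both contain electrically excitable cells that depend on calcium handling and on membrane and cytoskeletal specialisations that hepatocytes lack. In the gene positions at hand the lists matched their labels at some of the marker genes. The promoters of myogenin (MYOG) and of tropomyosin TPM3 had 4 and 2 muscle peaks within 3 kb of the transcription start site (TSS) and no peak in the other lists. OLIG1, of oligodendrocytes, had 2 hypothalamus peaks and none in the other lists. The fibrinogen gene FGG had 2 liver peaks and AMBP had 1, with none in the other lists. Some markers went against this pattern. The plasma protein genes AHSG and TF had 2 and 3 hypothalamus peaks and no liver peak, and SST and RBFOX1 had none in any list. Others were not confined to 1 list. APOA2 had 2 liver peaks and 1 in each of the other lists. The muscle genes DES and MEF2D had 4 and 5 muscle peaks but also 1 and 4 hypothalamus peaks, and MEF2D had 1 liver peak.

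Of the 16051 hypothalamus peaks that overlapped a muscle peak, 48.9% had no liver peak (95% interval 48.1 to 49.6). Because the liver list is much shorter, with 10465 peaks on these sequences against 28554 in muscle, this share depends on how deep the lists go. When only the strongest 11359 peaks on chromosomes 1 to 29 were kept in each list, as many as liver has there, 626 regions were left and 9.60% of the shared peaks had no liver peak (8.90 to 10.3). These 626 are the regions that are strong in both hypothalamus and muscle, and they are pointed out below. In muscle, 9011 of the 17431 peaks that overlapped a hypothalamus peak had no liver peak (51.7%, 51.0 to 52.4).

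The regions were of intermediate strength. In hypothalamus their median summit −log10 p was 8.26 (quartiles 5.32 and 11.7), against 5.35 for peaks found in hypothalamus only and 16.0 for peaks of all 3 tissues. Within the hypothalamus list the median region stood at percentile 68.9 (quartiles 41.1 and 81.8), against 41.4 for hypothalamus only and 91.9 for all 3 tissues. The 608 peaks that overlapped liver but not muscle were also between, at a median percentile of 59.8. In muscle the regions ranked lower. Each region takes there the highest summit of its overlapping muscle peaks, and 1 muscle peak can count for several regions, while muscle-only peaks count once each. The median summit −log10 p there was 4.77 (quartiles 4.06 and 5.85) and the median percentile 41.9 (quartiles 22.2 and 61.6), close to the 36.5 of peaks found in muscle only and below the 82.8 of peaks in all 3 tissues. In number, 593 regions were at or above percentile 90 of the hypothalamus list, 134 at or above percentile 90 of the muscle list, and 29 in both (0.370%, 0.258 to 0.530). By comparison, 29.4% of the peaks of all 3 tissues were that high in both lists.

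**Figure D1:**
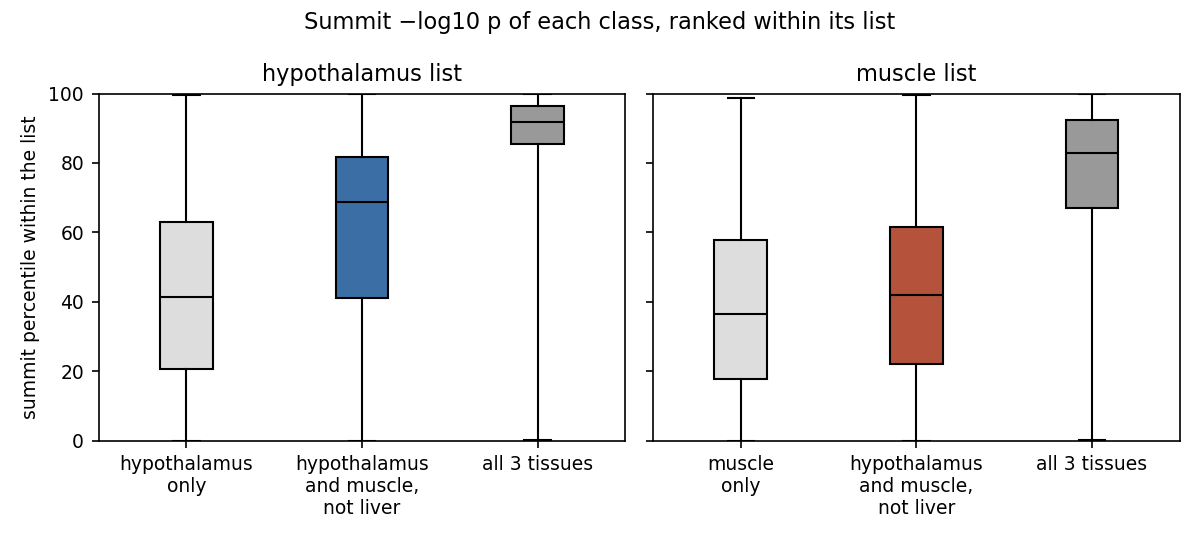
Summit −log10 p of each class of peak, as a percentile within the hypothalamus list (left) and the muscle list (right). Boxes span the quartiles with the median as a line, and whiskers reach the lowest and highest peak. The regions shared by hypothalamus and muscle but not liver have medians of 68.9 and 41.9, between the peaks of 1 tissue and those of all 3. On the right, regions and all-tissue peaks take the highest summit of their overlapping muscle peaks, while muscle-only peaks count once each.

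The share of shared peaks without a liver peak fell with strength. Ranked by the muscle summit into 10 bins of equal size, 90.4% (88.9 to 91.8) of the weakest bin had no liver peak, 57.0% (54.6 to 59.4) of bin 5, and 1.62% (1.11 to 2.36) of the strongest bin. Ranked by the hypothalamus summit, the share was 86.4% in each of the 2 weakest bins and ended at 3.99% (3.13 to 5.06) in the strongest. In the strongest bin by muscle summit, with a −log10 p from 9.79 upward, 26 regions thus lacked a liver peak. The 26 are hypothalamus peaks, and some take the value of the same muscle peak, such as chr23:27515693-27517179 and chr23:27517805-27518549 (both 12.7).

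**Figure D2:**
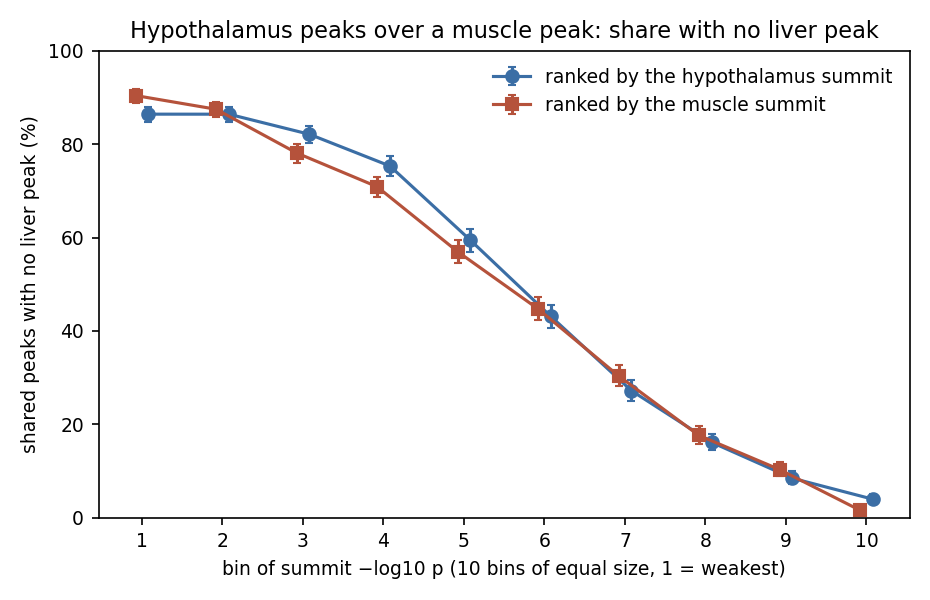
Percent of the 16051 hypothalamus peaks over a muscle peak that have no liver peak, in 10 bins of equal size by summit −log10 p (1 is the weakest), with 95% Wilson intervals. Squares rank the peaks by the muscle summit and circles by the hypothalamus summit. The share drops from 90.4% to 1.62% along the muscle ranking and from 86.4% to 3.99% along the hypothalamus ranking.

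The rule requires overlap, so the hypothalamus and muscle peaks of a region lie close together by selection, and the distances are given as a description. Muscle peaks covered a median of 54.5% of a region (quartiles 33.9 and 82.0). Of the regions, 7392 overlapped 1 muscle peak, 404 overlapped 2, and 48 overlapped 3 or more, with 8 at most. In the 7174 regions where 1 hypothalamus peak met 1 muscle peak, the summits were a median of 45 bp apart, and 71.7% (70.7 to 72.8) were within 100 bp. In the 7211 such pairs that also overlapped a liver peak, the median was 16 bp and 87.4% (86.6 to 88.1) were within 100 bp. The hypothalamus peak was the longer of the pair in 80.1% of the 7174 regions, with a median length ratio of 1.80. In the 7211 pairs that also overlapped liver these values were 93.3% and 1.91. The median length over all regions was 921 bp in hypothalamus and 488 bp in muscle.

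At the edge of the rule, the region nearest to a liver peak (chr25:41733870-41734774 on ARS-UCD1.2) was 111 bp from it, with a summit −log10 p of 3.93 in hypothalamus and 3.31 in muscle. The next were 143 bp away (chr18:48432797-48433475, 5.04 and 6.18) and 148 bp away (chr27:7139524-7139711, 3.93 and 4.14). Just outside, the smallest overlap of an all-tissue peak with liver was 100 bp (chr9:25101621-25101720, 4.26 and 5.24). On the muscle side, chr7:51427642-51428962 shared 1 bp with its muscle peak, and 20 regions shared under 50 bp. A further 27 regions overlapped only muscle peaks that themselves reached a liver peak. The median distance from a region to the nearest liver peak was 37.9 kb. Of the regions, 210 (2.68%) were within 1 kb of a liver peak, 1746 (22.3%) within 10 kb, and 2095 (26.7%) over 100 kb away.

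The regions numbered 3.19 per Mb over the 29 chromosomes. Chromosome 19 held 537, or 8.60 per Mb, chromosome 18 held 447 (6.90 per Mb), and chromosome 25 held 258 (6.24 per Mb), while chromosome 6 had the fewest per Mb (1.499). Hypothalamus peaks as a whole were also dense on chromosome 19 (54.5 per Mb) and sparse on chromosome 6 (17.97 per Mb). The share of shared peaks without a liver peak varied less, from 43.2% (38.5 to 48.1) on chromosome 6 to 58.9% (53.5 to 64.1) on chromosome 28.

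**Figure D3:**
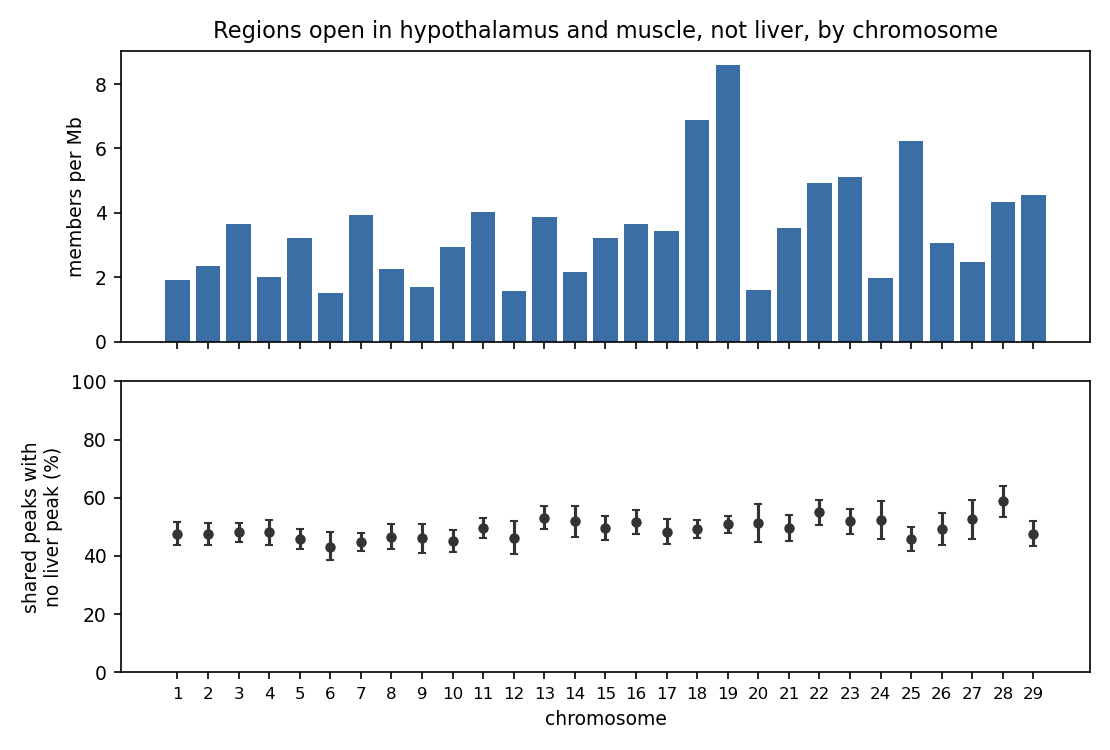
Regions open in hypothalamus and muscle but not liver, per Mb of each chromosome beyond its first 1 Mb (top), and the percent of hypothalamus peaks over a muscle peak that have no liver peak, with 95% Wilson intervals (bottom). Density ranges from 1.499 to 8.60 per Mb, while the share stays between 43.2% and 58.9%.

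Regions often lay close together. With gaps of up to 10 kb, 2730 of them (34.8%) stood in runs of 2 or more, 1196 in runs of 3 or more, and 328 in 49 runs of 5 or more. The largest run had 15 regions over 43.8 kb of chromosome 22 (chr22:14797955-14841776) with no liver peak, 3 hypothalamus-only peaks, and 2 muscle-only peaks among them. The next largest had 13 regions each. One was on chromosome 21 (chr21:69160820-69205615), one at NR4A1 on chromosome 5 (chr5:27817566-27860955), and one over BIN1 on chromosome 2 (chr2:5416738-5473187). The runs on chromosomes 21 and 2 held no liver peak, and the one at NR4A1 held 3. The regions were also more often near peaks of other classes than one-tissue peaks were. An all-tissue peak lay within 10 kb of 21.0% of the regions (20.1 to 21.9), against 13.0% (12.7 to 13.3) of hypothalamus-only and 13.7% (13.1 to 14.4) of muscle-only peaks. This was not particular to all-tissue peaks. A hypothalamus-only peak lay within 10 kb of 60.6% of the regions and 39.0% of muscle-only peaks. A muscle-only peak lay within 10 kb of 28.8% of the regions and 9.77% of hypothalamus-only peaks.

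Gene features were those of the authors' ChIPseeker annotation, joined by peak name and analyzed for chromosome 1 and chromosome 2 up to 72.6 Mb for muscle peaks and chromosome 1 up to 97.0 Mb for hypothalamus peaks. Among muscle peaks, 150 of the 466 that overlapped hypothalamus and not liver were in promoters (within 3 kb of a TSS), which is 32.2% (28.1 to 36.6). A further 203 were distal intergenic (43.6%, 39.1 to 48.1) and 96 intronic (20.6%, 17.2 to 24.5). The hypothalamus peaks gave a similar order, with 42 of 145 regions in promoters (28.97%, 22.2 to 36.8), 74 distal intergenic, and 21 intronic.

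**Figure D4:**
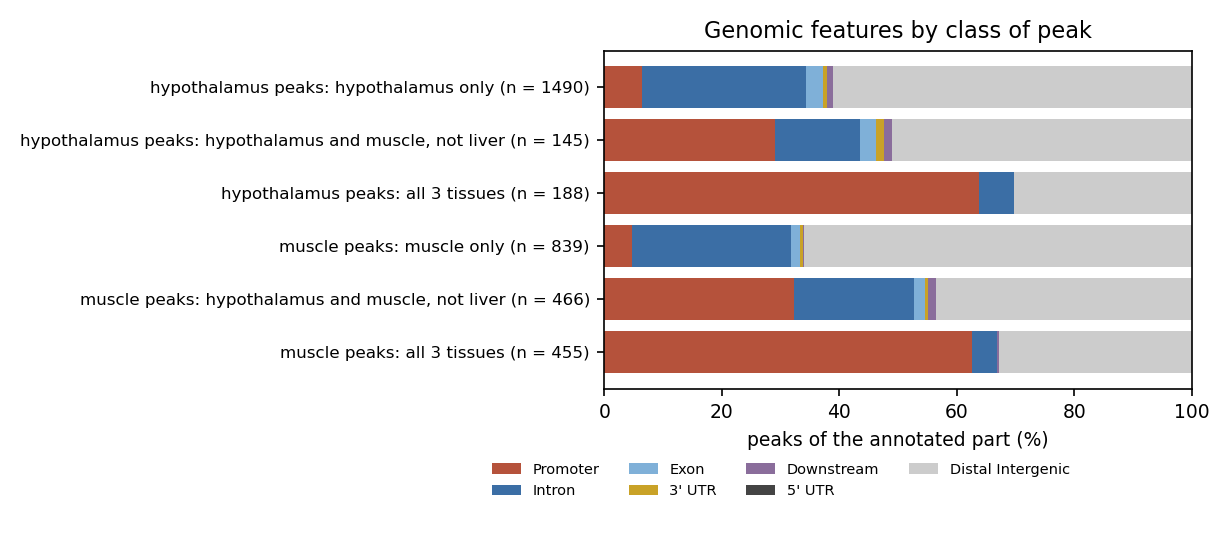
Genomic features of hypothalamus peaks (upper bars) and muscle peaks (lower bars) by class, as a percent of the annotated peaks of each class, with n beside each bar. Promoters make up 28.97% and 32.2% of the regions shared by hypothalamus and muscle but not liver, 6.38% and 4.77% of peaks found in 1 tissue, and 63.8% and 62.6% of peaks in all 3.

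Promoter content thus lay between that of one-tissue and all-tissue peaks. Measured from the nearest edge of a muscle peak, the share within 3 kb of a TSS was 27.3 percentage points higher (Newcombe 95% interval 22.9 to 31.8) than in muscle-only peaks and differed from that of all-tissue peaks by -30.6 points (-36.5 to -24.3). From hypothalamus peaks the difference to hypothalamus-only peaks was 22.2 points (15.4 to 30.1) and that to all-tissue peaks -35.3 points (-44.6 to -24.7). Hypothalamus peaks that overlapped liver but not muscle were also between these classes, with 7 of 17 within 3 kb (41.2%, 21.6 to 64.0). The median distance to a TSS was 21.98 kb for the muscle peaks shared with hypothalamus and not liver, 109 kb for muscle-only peaks, and 0 kb for all-tissue peaks.

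Put the other way, shared peaks away from a TSS lacked a liver peak more often. On the part of the genome annotated for muscle, 63.0% (58.5 to 67.3) of 454 shared peaks over 3 kb from a TSS had no liver peak, against 29.3% (25.01 to 33.9) of 400 within 3 kb, a difference of 33.7 percentage points (27.3 to 39.8). Strength moved with this. In 3 bins of equal size by muscle summit, the strongest held 183 of the shared peaks within 3 kb of a TSS and 102 of those farther away, and the weakest held 84 and 201. Within these bins the difference was 9.08 points (-0.760 to 20.2) in the weakest, 27.5 points (15.9 to 38.0) in the middle, and 17.3 points (9.65 to 26.3) in the strongest. In 3 such bins by hypothalamus summit the difference was smaller. It was 5.48 points (-5.32 to 19.2) in the weakest, 17.5 points (5.89 to 28.5) in the middle, and 11.4 points (3.23 to 21.3) in the strongest. Among the regions themselves, those within 3 kb of a TSS had a higher median summit −log10 p in hypothalamus (11.1, 95% interval 10.1 to 11.8, n = 117) than those farther away (7.18, 6.56 to 7.82, n = 284). In muscle the medians were 4.97 (4.65 to 5.43) and 4.96 (4.72 to 5.13), with overlapping intervals.

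Only genes nearest to a peak in the authors' annotation had a known TSS, which favours genes near peaks. Of 647 such genes in the part annotated for muscle, 115 had a region within 3 kb (17.8%). By the rule these regions overlap no liver peak. A liver peak lay elsewhere in the 3 kb window at 8 of the 115 genes, among them HES1, MYNN, and PKNOX1, and nowhere in it at 107. Of the 409 genes with both hypothalamus and muscle peaks within 3 kb, 109 had no liver peak in the window and 300 had at least 1. At 27 of the 115 genes the region was among the strongest peaks of both lists.

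Of the promoter regions, that of SH3BGR, which encodes an SH3-binding glutamic acid-rich protein of heart and skeletal muscle, stood highest in muscle. It lay at chr1:139528285-139529219, with a summit −log10 p of 15.1 in hypothalamus (percentile 90.1) and 10.6 in muscle (percentile 96.7). The promoter of SLC25A12, the calcium-activated aspartate and glutamate carrier of mitochondria in brain and muscle, had a region at chr2:24636775-24637891 with 13.3 in hypothalamus and 9.32 in muscle. MLF1 (chr1:108938213-108939567) had 18.5 and 8.06. TRPC1, a cation channel subunit, had 20.1 and 7.66 at chr1:126319618-126321591. All of these were above percentile 81.9 in both lists.

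Some promoter regions lay at genes known mainly from neurons or glia, and their muscle percentiles ranged widely. These genes were picked after their values were seen and do not stand for the 115 genes with a promoter region. By the lower of the percentiles, SPC25 (76.3), URB1 (75.8), TRMT10C (75.1), USP13 (74.6), and SPICE1 (74.3), which were not picked, stood above all of them but TMEM108. APP, which encodes the amyloid precursor protein, had a summit −log10 p of 14.0 in hypothalamus (percentile 87.6) and 6.63 in muscle (percentile 71.7). MAP6D1, a microtubule-stabilising protein, had 17.4 (percentile 94.3) and 6.03 (percentile 64.2). S100B, a calcium-binding protein of astrocytes, had 18.4 (percentile 95.7) and 5.74 (percentile 60.1). TMEM108 had 20.8 (percentile 98.2) and 7.25 (percentile 78.3). KIF5C, a kinesin of axonal transport, had 17.1 in hypothalamus but 3.997 in muscle (percentile 20.1). EPHB1, an ephrin receptor, had 12.9 and 4.13 (percentile 24.5), and CLSTN2 had 7.96 and 4.97 (percentile 46.1). A region at the promoter of the homeobox gene DLX1 had 8.38 in hypothalamus and 5.57 in muscle, and one near DLX2 had 7.96 and 3.47 (percentile 4.38).

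BIN1 had the most regions of any gene in the annotated part. It encodes a membrane-bending protein that shapes the T-tubules of muscle and takes part in endocytosis in the brain, with tissue-specific splice forms. All 13 regions of the run lay in the 56.7 kb gene or across its start (chr2:5418347-5475052, forward strand), and 2 more were 45.1 and 46.6 kb upstream. The gene with 60 kb on either side held 32 hypothalamus peaks, 20 muscle peaks, and no liver peak. The nearest liver peak was 168 kb from the run and 122 kb from the outer of the 2 upstream regions. Some of these regions are listed in the annotation under MIR2350, a microRNA inside the gene.

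The strongest of them covered the BIN1 promoter and the middle of the gene. The promoter region (chr2:5416738-5425334) was 8597 bp long, with a summit −log10 p of 16.9 in hypothalamus and 8.43 in muscle, where it met 4 muscle peaks. The region in intron 2 (chr2:5448703-5454149) had 20.2 and 8.85, at percentiles 97.7 and 90.1, and stood highest of all annotated regions by the lower of its percentiles. One in intron 1 (chr2:5426057-5429333) had 14.9 and 6.55. These 3 were among the strongest peaks of both lists. The weakest regions of the run had 3.76 in hypothalamus and 2.98 in muscle, near the lowest values of the lists (2.86 and 2.77).

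**Figure D5:**
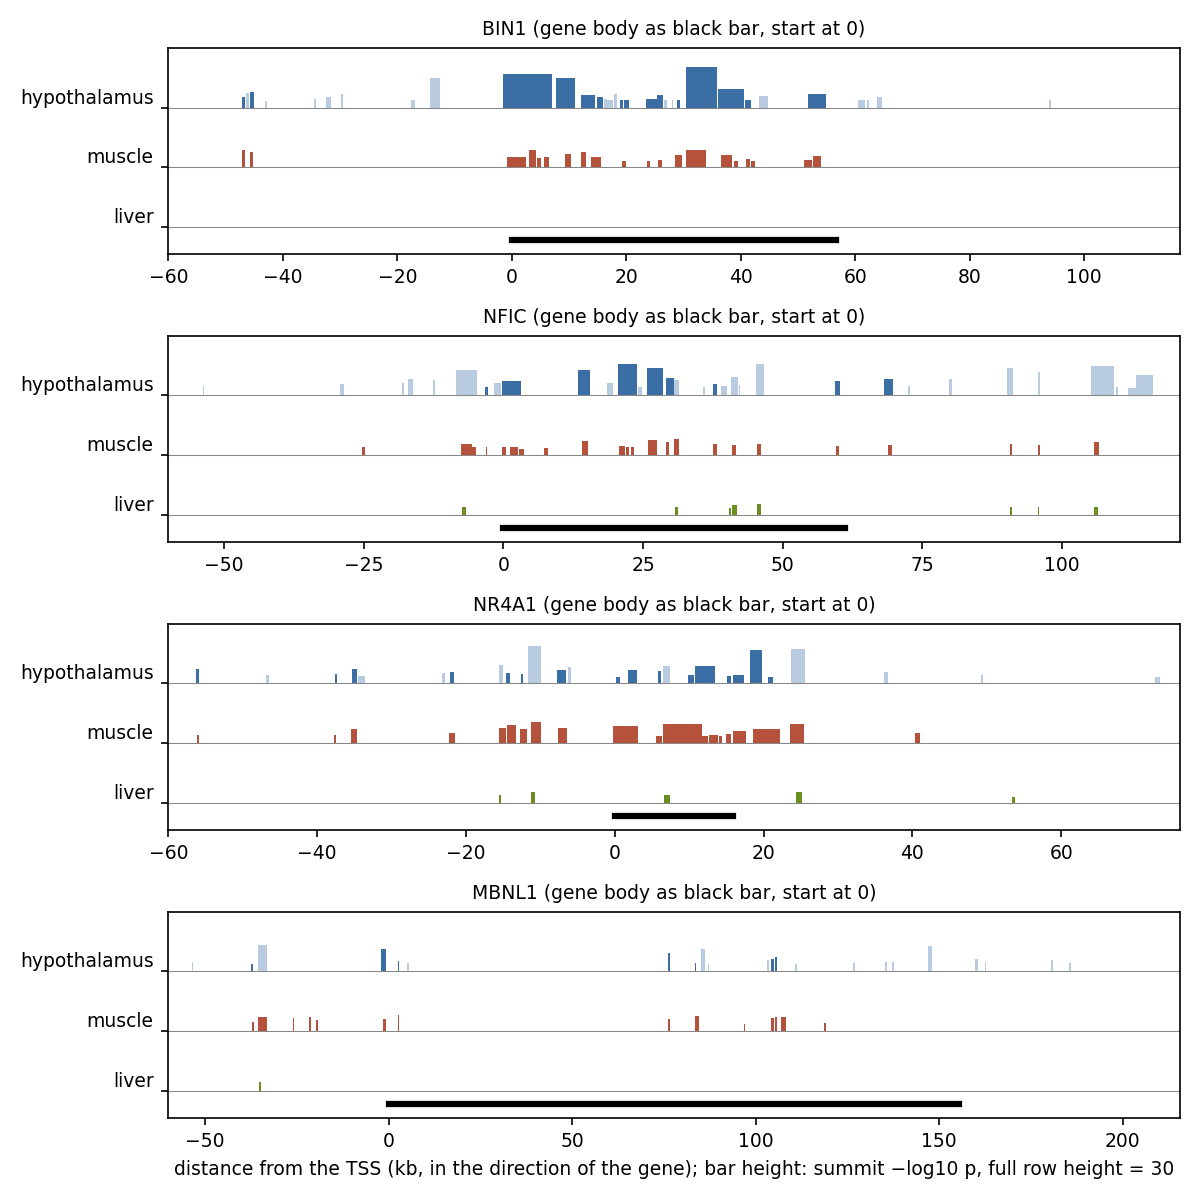
Peaks of the 3 lists around BIN1, NFIC, NR4A1, and MBNL1, by distance from the TSS in kb, with bar height giving the summit −log10 p (not scaled between lists) and the gene body as a black bar. Dark blue bars are hypothalamus peaks over a muscle peak and no liver peak, and pale blue bars are other hypothalamus peaks. BIN1 has 15 dark bars and no liver peak in view, and the other genes have liver peaks nearby.

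MBNL1, an RNA-binding regulator of alternative splicing that is sequestered in myotonic dystrophy, had 7 regions by nearest TSS. The one just upstream of its TSS (chr1:115462216-115463697) had a summit −log10 p of 11.1 in hypothalamus and 6.08 in muscle. The one 2.48 kb inside the gene (chr1:115458655-115459104) had 5.14 and 8.15 and so ranked higher in muscle, at percentile 85.8 against 38.2. TNK2, a non-receptor tyrosine kinase, also had 7, with a muscle summit of at most 6.28 and none among the strongest of both lists. ANAPC13 had 6 distal intergenic regions at 108 to 243 kb from its TSS. They included chr1:134953363-134956268, which had 23.0 in hypothalamus (percentile 99.4) but 4.16 in muscle (percentile 25.4).

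Of the annotated regions over 3 kb from a TSS, the next highest after the one in intron 2 of BIN1, by the lower of the percentiles, was distal. It lay 19.5 kb from PIGP, a gene of glycosylphosphatidylinositol anchor synthesis (chr1:149296395-149298266), with a summit −log10 p of 20.1 in hypothalamus and 8.72 in muscle. BOC, a cell-surface receptor for hedgehog ligands that also acts in muscle differentiation, had an intronic region (chr1:58001164-58004954) with 17.2 in hypothalamus and 8.31 in muscle. ZEB2, a transcriptional repressor, had one in intron 2 (chr2:52179977-52184172) with 15.6 and 7.96. The Notch effector HES1 had a region 4.47 kb beyond its TSS (chr1:73358854-73360788) with 12.0 in hypothalamus and 9.62 in muscle, while its own promoter window held 2 liver peaks. Lower in this order, regions 22.7 and 35.0 kb from the TSS of HOXD4 had 17.1 and 6.37, and 14.7 and 6.34. A region 63.1 kb from ETS2 (chr1:151225231-151225821) was weak in hypothalamus (4.56, percentile 27.2) and strong in muscle (9.62, percentile 93.7).

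Among 428 listed genes of neurons, muscle, liver, signalling, and transcription, positions were at hand for 49 (11.4%), too few to count by list. A gene was placed only where it is nearest to a peak in the annotation given, which itself favours genes near peaks. Of the 49, 20 were the nearest placed gene to a region within 50 kb, and 13 had a region within 3 kb of the TSS. Of all 2275 genes with a known TSS on chromosomes 1 to 29, 278 had one (12.2%), against 17.8% of the 647 in the part annotated for muscle. Beyond that part, positions came only from the authors' annotations of other sets of peaks, so these percentages cover unlike sets of genes. In the group of nuclear factor I, TEAD, and AP-1 genes, NFIA, NFIC, NR4A1, FOS, and FOSL2 were 5 of 9 placed genes with a region within 3 kb. FOS and FOSL2 also had liver peaks in that window, as did JUN, JUNB, JUND, and NR4A2, which had no region there. In the Wnt, hedgehog, and Notch group, FZD3, FZD7, PTCH1, and HES1 were 4 of 6 placed. CACNA2D1, SGCA, MEF2D, and DES were the others, each the single such gene of its list. Of the genes in these groups, FZD7, PTCH1, HES1, and MEF2D also had liver peaks within 3 kb of the TSS. The remaining 11 lists with placed genes, 22 in all, had none, among them the lists of neuronal (2 placed), glial (1), hepatocyte (5), and liver isozyme genes (3).

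NFIC and NFIA, transcription factors of the nuclear factor I family, had several regions each. NFIC had 9 in or within 20 kb of the gene, with a median summit −log10 p of 8.08 in hypothalamus (range 4.37 to 15.6) and 5.28 in muscle (4.16 to 7.76). The strongest in both, chr7:20480833-20483703, had 13.6 and 7.76. NFIA had 11, with a median of 9.13 in hypothalamus (3.94 to 13.7) and 4.35 in muscle (3.59 to 5.87). In percentiles the medians were 67.9 in hypothalamus and 52.1 in muscle for NFIC, and 73.3 and 31.4 for NFIA. Liver peaks also lay at both genes, as near as 0.220 kb to a region at NFIC and 1.25 kb at NFIA.

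NR4A1 ranked higher in muscle. NR4A1, an orphan nuclear receptor induced by activity and exercise, had 12 regions in or within 20 kb of the gene, with a median summit −log10 p of 5.01 in hypothalamus (3.43 to 17.0) and 7.48 in muscle (3.87 to 9.58). The median percentiles were 35.8 and 80.3, and 10 of the 12 stood higher in the muscle list. They take their muscle values from 9 muscle peaks, and 6 of them lie in pairs over 1 muscle peak. The highest muscle value, 9.58, comes from 1 muscle peak that also covers a liver peak and lies under a pair of these regions. For chr5:27825402-27828099 of this pair, at percentile 71.6 in hypothalamus, the other muscle peaks had 4.32 and 3.55. MEF2D, a myocyte enhancer factor that acts in both muscle and neurons, had 8, at a median percentile of 30.6 in hypothalamus and 49.6 in muscle, and 4 of them stood higher in muscle. Their muscle values come from 6 muscle peaks, and 4 of the regions lie in pairs over 1 muscle peak. Its upstream region (chr3:14322861-14324013) had 5.18 and 9.81, at percentiles 38.8 and 94.4, and was 0.962 kb from a liver peak. The gene SGCA, of the dystrophin complex, had 1 region within 3 kb and 2 within 3 kb or in the gene body, and DES, the muscle intermediate filament, had 1 weak region beside 4 muscle peaks.

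Outside the annotated part the regions are given by position. The one that stood highest in both lists was chr14:1223557-1225506, with a summit −log10 p of 20.8 in hypothalamus (percentile 98.2) and 11.1 in muscle (percentile 97.6), 69.6 kb from a liver peak. It was followed by chr29:43787014-43788233 (21.0 and 10.7, percentiles 98.3 and 96.9) and chr3:104835479-104839138 (21.98 and 10.1, percentiles 99.0 and 95.3). The next, chr4:92802706-92805363 (17.0 and 9.99), lay in a muscle peak of 20826 bp with the largest muscle AUC of all regions, 48672, which covered other regions too. The remaining 6 of the 10 highest were on chromosomes 3, 7, 13, 16, 22, and 29, each above percentile 92.7 in both lists. The highest hypothalamus summit was at chr18:56410352-56411945 (25.3, with 8.92 in muscle).

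The most unequal regions, among those at or above percentile 50 of both lists by AUC, differed by up to 79.8 percentile points. The region at chr9:96221271-96224082 had 12.7 in hypothalamus (percentile 84.6) and 3.49 in muscle (percentile 4.82). That at chr26:24251769-24259383 had 18.8 (percentile 96.3) and 3.98 (percentile 19.6). In the opposite direction, chr29:49593535-49595164 had 4.09 in hypothalamus (percentile 15.7) and 9.18 in muscle (percentile 91.9), and chr18:45863882-45865268 had 3.91 (percentile 10.8) and 8.22 (percentile 86.3).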

How the data were processed

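The data were 3 deposited ATAC-seq peak lists, 1 per tissue of 3 heifers. Reads had been aligned to ARS-UCD1.2 by the authors (HISAT2), and Genrich 0.6.1 had called peaks per heifer with p values joined by Fisher's method. The signal of a deposited peak is its AUC, and the deposited −log10 p is that at the summit, not corrected for multiple tests. Neither is scaled between lists.

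Overlaps of 1 bp, distances, and percentiles were computed in python 3.11.15 (scipy 1.17.1, pandas 2.3.3, numpy 2.4.6), tested on simulated data, and drawn with matplotlib 3.10.9. Muscle values are those of the overlapping muscle peak with the highest summit. Shares have Wilson and differences Newcombe 95% intervals, and medians order-statistic intervals. Starts are printed from 1. TSS positions and features came from the authors' annotation, for 401 of the regions (5.11%), and gene symbols missing there from RefSeq by gene ID. The regions and gene lists were chosen with earlier results of these data known.

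Named are the 10 regions with the highest lower percentile, the 4 most unequal in each direction (the first 2 are printed), the largest runs, the genes with most regions, up to 3 genes a list, the regions at the edge of the rule, and others chosen after their values were seen. Of the latter are the annotated promoters, distal regions, and label-check genes. Sequence, motifs, and the authors' gene expression were not analysed here.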

Additional observations from a re-analysis of the deposited data

How the results depend on the processing

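Over 7 results and 36 alternatives, 22 values stayed within 1.5 times the count, within the 95% interval, or with an interval above 0. The number of regions (7844) became 2705 where a summit −log10 p of 5 was required in hypothalamus and muscle and 626 with equal numbers of the strongest peaks. The percent of shared peaks without a liver peak (48.9%) became 47.6% with no liver peak within 1 kb, 63.2% with a summit of at least 5 in all lists, and 9.60% with equal numbers. The percent within 3 kb of a TSS (29.03%) became 34.6% where a summit of at least 5 was required in hypothalamus and muscle and the liver list was kept whole. The median percentile was then 79.7 in hypothalamus and 64.3 in muscle. By AUC it was 70.8 in hypothalamus, and by AUC per bp 64.3 in hypothalamus and 38.8 in muscle. Of the listed genes, 13 in place of 20 had a region when it had to lie within 3 kb of the TSS. The difference by distance from a TSS fell short in the weakest of 3 equal bins by muscle summit (9.08 points) and by hypothalamus summit (5.48 points, -5.32 to 19.2), alternatives chosen after seeing the data. The cause was not tested except that a stricter summit or equal numbers leave fewer peaks by construction.

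No paired analysis was possible because the deposited lists give no values by heifer, and leaving out each heifer was not run for the same reason. The alternatives for GC content and motifs were not run without a genome of this build. A missing liver peak means that none passed the authors' threshold, not that the chromatin was closed.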

Other observations

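Outside the rule, chromosome X held 657 hypothalamus peaks over a muscle peak, of which 215 had no liver peak (32.7%, 95% interval 29.2 to 36.4). The first 1 Mb of chromosomes 1 to 29 held 583, of which 66 had none (11.3%, 8.998 to 14.1). On unplaced sequences 7242 hypothalamus peaks overlapped a muscle peak and 69 of them had no liver peak (0.953%, 0.754 to 1.204). ZBTB16, a zinc finger transcription factor, had 18 regions in or within 20 kb of its 198 kb gene on chromosome 15, with a median summit −log10 p of 5.15 in hypothalamus and 4.33 in muscle. The gene with 60 kb on either side held 58 muscle peaks and 7 liver peaks, and it was named after its values were seen.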
